A study of Mus musculus with 14 samples.

Results

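WDR5 was called at 1126 narrow regions in MLL-AF9 cells under DMSO, again under MM-401 and again in Mll1 flox cells under EtOH, but not in the same flox cells under 4OHT. These regions are called 4OHT-absent peaks here. They were selected by the WDR5 peak positions themselves, from the 13744 autosomal DMSO WDR5 peaks of 500 bp or less, as those that shared at least 1 bp with an MM-401 and an EtOH WDR5 peak and none with a 4OHT WDR5 peak. This choice took 8.19% of the peaks. Because WDR5 chose them, their WDR5 values are a description, and only H3K4me2 and MLL1, which come from other libraries, are compared with other WDR5 peaks.

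Chromatin immunoprecipitation followed by sequencing (ChIP-seq) had mapped MLL1, WDR5 and H3K4me2 in mouse bone marrow cells transduced with MLL-AF9. The first line, called MAF9, was kept for 2 days in 20 µM MM-401, with DMSO as the control. The second carried MLL1 flox/flox and ER-cre+/- and was also transduced with MLL-AF9, so that all 4 conditions held the fusion gene. It was kept for 2 days in 400 nM 4OHT, with EtOH as the control. The medium for MAF9 cells was Iscove's, with 10 ng per ml of interleukin-3 and 15% serum, and 15 µl of antibody went into each ChIP. Each condition and antibody had 1 library and 1 peak list, and MLL1 lists exist here for MAF9 cells alone. Lists give positions without height or read count, so the depth was unknown and an absent peak is a peak that was not called. Whether Mll1 had been deleted under 4OHT could not be checked in these lists. Treatment effects between MAF9 and flox cells cannot be told apart from differences between the cell lines. WDR5 peaks numbered 34587 in EtOH and 41054 under 4OHT, beside 14481 in DMSO and 17273 under MM-401.

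MLL1 (KMT2A) is a histone methyltransferase that methylates lysine 4 of histone H3. WDR5 belongs to the core of complexes built around MLL1 and around its relatives in the same family, so WDR5 on chromatin need not mean MLL1. H3K4me2, the dimethylated form, marks active promoters and enhancers. MM-401 blocks the contact between MLL1 and WDR5, whereas 4OHT switches on the ER-cre recombinase that cuts out floxed Mll1 exons. The fusion protein MLL-AF9 keeps the N-terminal portion of MLL1 and lacks the C-terminal portion that contacts WDR5.

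To place the 4OHT-absent peaks among the other DMSO WDR5 peaks, all peaks were sorted by presence in the remaining 3 lists. Absence from 4OHT was common, at 71.6% of the DMSO peaks. The largest class, of 5221 peaks or 38.0%, was absent from all 3 other lists. In all 4 lists 1222 peaks were found, and these are called retained peaks. A further 691 peaks were present under MM-401 and 4OHT and absent from EtOH only. These EtOH-absent peaks show what the same rule gives when control and deletion are exchanged. Another 944 peaks were absent from MM-401 only, and 1205 were absent from both MM-401 and 4OHT.

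**Figure D1:**
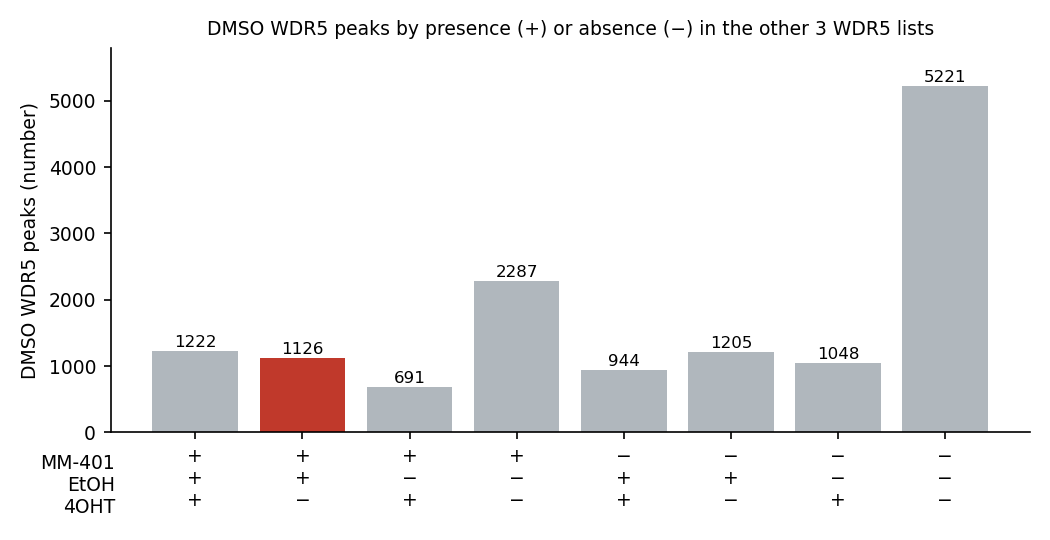
Bars give the number of autosomal DMSO WDR5 peaks of 500 bp or less (vertical axis) for each of the 8 patterns of presence (+) or absence (−) in the MM-401, EtOH and 4OHT WDR5 lists. The red bar holds the 1126 peaks absent only from 4OHT, beside 1222 in all lists and 691 absent only from EtOH.

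Among the 2348 peaks called in both MM-401 and EtOH, 48.0% were absent from 4OHT. In the exchanged direction, among 1913 peaks called in MM-401 and 4OHT, 36.1% were absent from EtOH. The 4OHT list was the longer of the pair, yet it missed more peaks. In peaks of 75 to 100 bp, the shares were 63.8% absent from 4OHT and 52.9% absent from EtOH. In peaks over 300 bp, they were 37.2% and 22.4%. Absence was thus most frequent in the narrowest peaks in both directions. At peaks not called under MM-401 the shares lay closer together, with 56.1% of EtOH-supported peaks absent from 4OHT and 52.6% of 4OHT-supported peaks absent from EtOH. No replicate library was there to show how often a WDR5 peak is missed by chance, so these shares carry no test.

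The 4OHT-absent peaks were narrower than the retained ones and wider than DMSO WDR5 peaks in general. Their DMSO width had a median of 250 bp with quartiles of 175 and 325 bp, against a median of 300 bp (225 to 375 bp) for retained peaks and 175 bp (125 to 250 bp) for all DMSO peaks. The MM-401 WDR5 peak over them had the same median of 250 bp. In EtOH, the control of the deletion, the WDR5 peak over them measured 200 bp (150 to 275 bp), while that over retained peaks measured 275 bp (200 to 400 bp). By width class, 113 of the 4OHT-absent peaks had 75 to 100 bp, 289 had over 100 and up to 200 bp, 397 had over 200 and up to 300 bp and 327 were wider. They made up 3.39%, 5.36%, 12.9% and 16.8% of all DMSO peaks in these classes, in the same order. At the limits of the rule, 13 peaks had exactly 500 bp, and 12 peaks that were 1 step of the 25 bp grid wider met the remaining conditions. A total of 32 peaks touched a 4OHT WDR5 peak without sharing a base, 31 lay 25 bp away and 32 lay 50 bp away, whereas 50 retained peaks owed their place to a shared stretch of 25 bp.

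How far the next WDR5 peak lay under 4OHT divided the regions. The median was 2925 bp, with quartiles of 375 and 14375 bp and a maximum of 382800 bp. A 4OHT WDR5 peak lay within 100 bp of 139 regions (12.3%), within 500 bp of 335 (29.8%), within 2 kb of 506 (44.9%), within 10 kb of 777 (69.0%) and within 50 kb of 1045 (92.8%). The 81 regions beyond 50 kb made up 7.19%. EtOH-absent peaks lay at much the same distances from the EtOH list as called, with a median of 3400 bp, 30.4% within 500 bp and 43.8% within 2 kb. The EtOH list is shorter than the 4OHT list, however. With the 4OHT list cut to the EtOH length, the median of the 1191 regions then chosen was 4750 bp, so this likeness depends on list length. Peaks absent only from MM-401 were more often isolated from the MM-401 list, with 15.5% beyond 50 kb and a median of 3512.5 bp. That list holds fewer peaks.

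**Figure D2:**
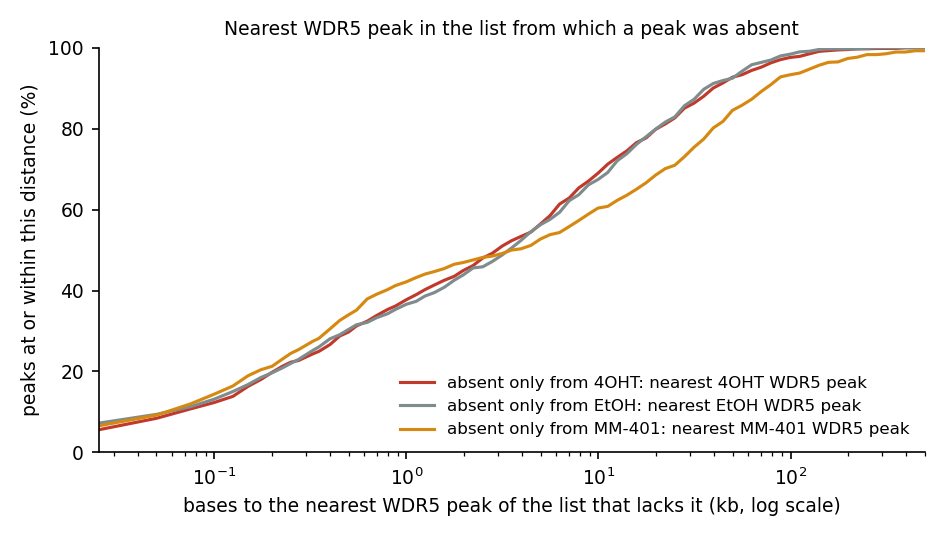
Cumulative share of WDR5 peaks (vertical axis, %) against the bases to the nearest WDR5 peak of the list from which they were absent (horizontal axis, kb, log scale). The curves for peaks absent only from 4OHT (red) and only from EtOH (grey) run together, with 29.8% and 30.4% within 500 bp. The 4OHT list is longer than the EtOH list.

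Many regions, though not most, shared their H3K4me2 domain with a 4OHT WDR5 peak, whether or not it was the nearest. Of the 1058 regions overlapped by an EtOH H3K4me2 peak, 478 shared that H3K4me2 peak with a 4OHT WDR5 peak, or 45.2% (95% Wilson interval 42.2 to 48.2%). For EtOH-absent peaks the exchanged count was 279 of 635, or 43.9% (40.1 to 47.8%), and the intervals overlap. That count used 4OHT H3K4me2 peaks and the shorter EtOH WDR5 list, so the shares are not fully alike. H3K4me2 peaks with a 4OHT WDR5 peak were wider, with a median over the regions of 4325 bp against 1950 bp without one. A wider peak has more room to hold a WDR5 peak, so these medians are a description only. Intervals reflect only how many peaks were counted, and peaks lying close together are not independent. The regions themselves were scattered: the 1058 lay in 1029 distinct EtOH H3K4me2 peaks, of which 1001 held 1 region, 27 held 2 and 1 held 3. Another region of the kind lay within 5 kb of 56 of them (4.97%).

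To ask whether the mark placed by MLL-family enzymes was gone where WDR5 was no longer called, H3K4me2 was read at the 4OHT-absent peaks in each condition. H3K4me2 stayed called at most of them. It overlapped 1015 of 1126 in DMSO, or 90.1% (88.3 to 91.7%), and 1063 under MM-401, or 94.4% (92.9 to 95.6%). In flox cells it overlapped 1058 in EtOH, or 94.0% (92.4 to 95.2%), and 1018 under 4OHT, or 90.4% (88.5 to 92.0%). Over all 13744 DMSO WDR5 peaks H3K4me2 was called at 91.3% in EtOH and 88.8% under 4OHT, and at 88.7% in DMSO and 92.6% under MM-401. The 4 lists thus stood in the same order at the regions and in the background, from DMSO as the lowest to MM-401 as the highest.

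**Figure D3:**
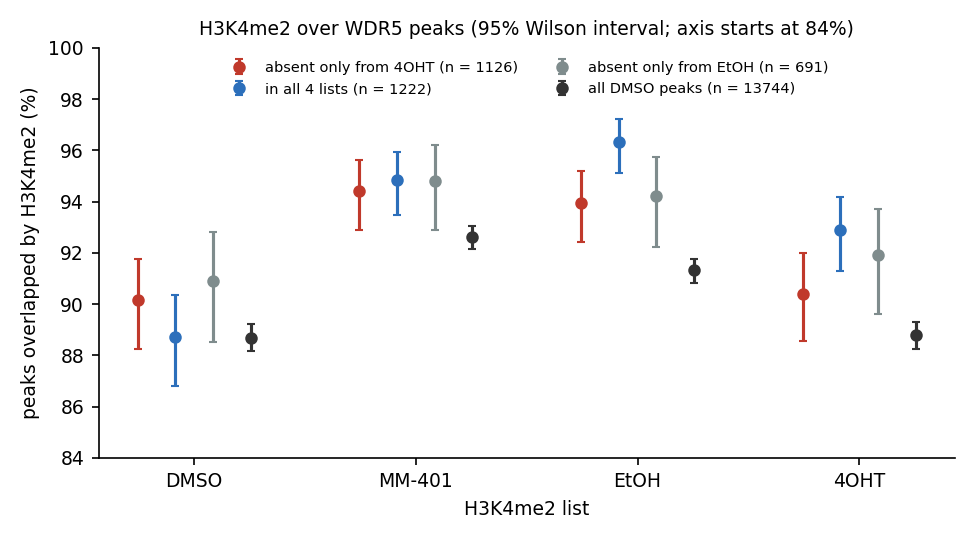
Share of WDR5 peaks overlapped by an H3K4me2 peak (vertical axis, %, starting at 84%) in each of the 4 H3K4me2 lists, for 4 sets of WDR5 peaks, with bars for the 95% Wilson interval. Peaks absent only from 4OHT (red) had H3K4me2 at 94.0% in EtOH and 90.4% under 4OHT, below retained peaks (blue) at 96.3% and 92.9%.

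Position by position, 958 regions (85.1%) had H3K4me2 in all 4 lists, against 83.1% of all DMSO peaks, and 32 (2.84%) had it in none, against 4.18%. H3K4me2 was called in EtOH and not under 4OHT at 56 regions, or 4.97% (3.85 to 6.40%), beside 3.77% of all DMSO peaks. The reverse, 4OHT without EtOH, was found at 16 regions, or 1.42% (0.877 to 2.30%), beside 1.23%. In MAF9 cells the balance went the other way, at the regions and in the background alike. H3K4me2 was called in DMSO and not under MM-401 at 16 regions (1.42%), beside 1.74% of all DMSO peaks. It was called under MM-401 and not in DMSO at 64 regions (5.68%), beside 5.66%. The mark was absent from DMSO alone at 34 regions (3.02%) and from 4OHT alone at 27 regions (2.40%). Among retained peaks, these patterns were found at 63 (5.16%) and 13 (1.06%). They were not counted over all DMSO peaks or at EtOH-absent peaks, so whether the regions differ from the background in them was not tested.

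Compared with retained peaks, the regions had H3K4me2 less often in flox cells, both in EtOH and under 4OHT. In EtOH the difference was −2.36 percentage points (95% Newcombe interval −4.16 to −0.619), from 96.3% at retained peaks. Under 4OHT it was −2.47 points (−4.75 to −0.234), from 92.9%. In MAF9 cells the intervals included 0, at 1.44 points (−1.07 to 3.92) in DMSO and −0.44 points (−2.30 to 1.39) under MM-401. Among peaks of 75 to 100 bp the DMSO difference was 14.2 points (1.13 to 27.9) in the opposite direction, with 113 regions and 64 retained peaks, and the 3 wider classes had DMSO intervals that included 0. Retained peaks were wider. Within each of 4 width classes the EtOH interval included 0, and the 4OHT interval excluded it only in the class from over 200 to 300 bp, with −3.89 points (−7.76 to −0.041). H3K4me2 in EtOH without 4OHT was 1.05 points more frequent at the regions than at retained peaks, with an interval of −0.629 to 2.76 that included 0. The reverse, 4OHT without EtOH, was also more frequent at the regions, by 0.930 points (0.137 to 1.84), from 16 regions and 6 retained peaks. Against EtOH-absent peaks, the difference in H3K4me2 under 4OHT was −1.49 points (−4.08 to 1.28). The interval of the 4OHT difference from retained peaks also included 0 under 3 other settings: with 50% of the DMSO peak covered in MM-401 and EtOH (−3.05 points), with the widest 50% of each WDR5 list (−1.68 points) and with 50% of the region covered by the mark (−2.06 points).

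The extent of H3K4me2 around the regions was also read, as bases covered within 1 kb of the centre, out of 2001. The median was 1901 in EtOH and 1788 under 4OHT, and 1626 in DMSO and 1751 under MM-401. Region by region, coverage was shorter under 4OHT than in EtOH at 493 (43.8%), equal at 378 (33.6%) and longer at 255, or 22.6% (20.3 to 25.2%). Retained peaks were shorter in 45.1% of cases and longer in 15.6%, and all DMSO peaks in 44.7% and 17.3%. The measure has a ceiling, since a window already full in EtOH cannot lengthen. Full windows made up 43.3% of the regions and 54.4% of retained peaks. Among the others, 40.0% of the regions (36.2 to 43.8%) were longer under 4OHT. The share was 34.3% at retained peaks (30.5 to 38.3%) and 33.1% at all DMSO peaks (32.0 to 34.2%). EtOH-absent peaks were close to the regions, at 38.4% (33.5 to 43.7%). Peaks absent from both MM-401 and 4OHT had 24.3%, and those absent only from MM-401 had 19.7%. These differences were not tested. Under MM-401 against DMSO, 54.7% of the regions had longer and 24.5% shorter coverage, beside 51.4% and 24.2% of all DMSO peaks. The median of the differences, taken region by region, was 0 bp for 4OHT minus EtOH and 37.5 bp for MM-401 minus DMSO. Median widths of the H3K4me2 peak over a region were 2900 bp in EtOH and 2550 bp under 4OHT, and 1975 bp for DMSO and 2275 bp for MM-401.

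H3K4me2 was called less often at the centre of the regions than beside it. In DMSO the mark covered 77.8% of centres, with up to 87.1% at 250 bp to the left and 85.5% at 200 bp to the right. Under 4OHT it covered 81.7% of centres, with up to 87.0% on the right. The dip was shallower in EtOH, where 88.9% of centres and up to 90.9% of positions to the left were covered. At retained peaks the DMSO dip went from up to 85.8% on the right to 71.4% at the centre. Farther out, at 2 kb, coverage at the regions had fallen to between 30.0% and 38.1% in the 4 lists. Some regions counted as lacking H3K4me2 therefore lay in a gap between marked stretches. Of the 111 without it in DMSO, 42 had H3K4me2 within 500 bp on both sides and 38 on 1 side. Of the 108 without it under 4OHT, 37 had it on both sides and 26 on 1 side, and of the 68 without it in EtOH, 9 had it on both sides. At retained peaks without the mark, both sides had it at 74 of 138 in DMSO and at 35 of 87 under 4OHT. Regions that straddled an end of their H3K4me2 peak numbered 113 in EtOH (10.7%) and 174 under 4OHT (17.1%), and 233 in DMSO (23.0%) and 158 under MM-401 (14.9%). Retained peaks straddled an end at 8.50% in EtOH and 20.8% under 4OHT, and at 34.0% in DMSO and 19.7% under MM-401, so the share was also higher under 4OHT than in EtOH where WDR5 was still called.

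**Figure D4:**
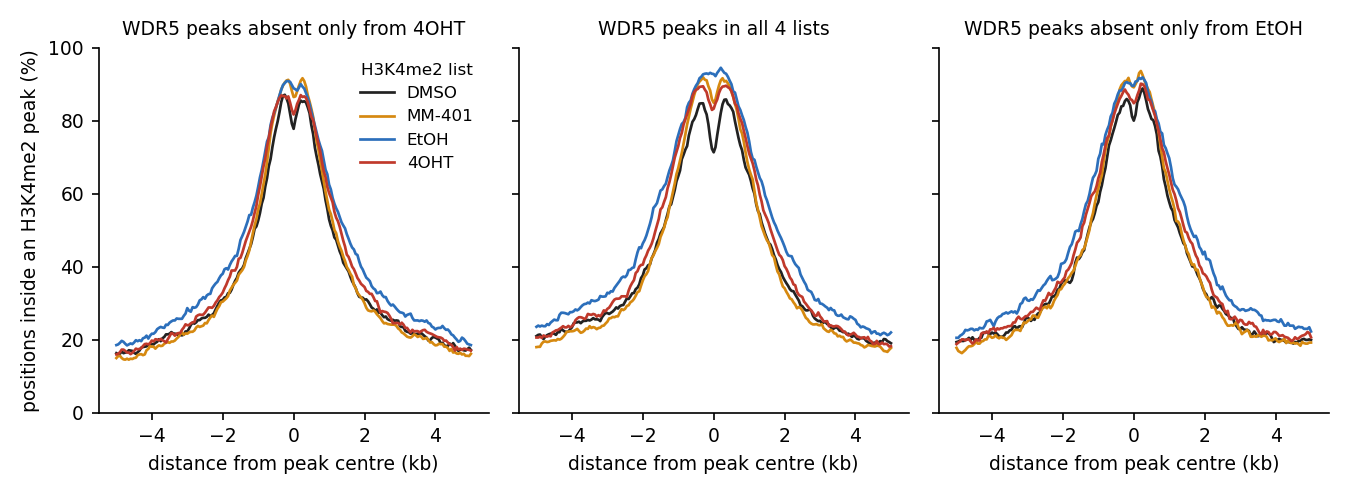
Share of positions inside an H3K4me2 peak (vertical axis, %) by distance from the WDR5 peak centre (horizontal axis, kb), in 50 bp steps, for each H3K4me2 list and 3 sets of WDR5 peaks. In all panels coverage is highest near the centre, and in DMSO it dips there, to 77.8% at peaks absent only from 4OHT and 71.4% at retained peaks.

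MLL1 itself was seldom called on the regions in MAF9 cells. The DMSO MLL1 list overlapped 31 of them, or 2.75% (1.95 to 3.88%), and the MM-401 list overlapped 60, or 5.33% (4.16 to 6.80%). Over all DMSO WDR5 peaks the shares were 3.10% and 5.62%. Both lists overlapped 2 regions (0.178%), beside 0.371% of all peaks. These lists came from different peak callers and are not compared with each other. Within 2 kb, MLL1 was called at 149 regions in DMSO, or 13.2% (11.4 to 15.3%), and at 360 under MM-401, or 32.0% (29.3 to 34.8%), against 16.5% and 35.9% of all peaks. The nearest MLL1 peak lay at a median of 45397 bp in DMSO and 8850 bp under MM-401, against 38456 and 6712.5 bp for all DMSO peaks and 32973.5 and 5450 bp for retained peaks.

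MLL1 was called near the 4OHT-absent peaks less often than near retained peaks, in both lists. Within 2 kb the retained peaks had MLL1 at 18.7% in DMSO and 38.6% under MM-401. The differences were −5.51 points (−8.45 to −2.54) and −6.65 points (−10.5 to −2.78). By width class the DMSO difference was −7.38 points (−13.8 to −1.14) from over 100 to 200 bp and −8.32 points (−13.4 to −3.25) from over 200 to 300 bp. It was 2.07 points in the narrowest class and −3.04 points in the widest, with intervals that included 0. Under MM-401 the regions were lower in all 4 classes, with differences from −11.2 to −5.49 points, each with an interval that included 0. Direct overlap differed by −1.01 points (−2.47 to 0.451) in DMSO and by −3.10 points (−5.15 to −1.05) under MM-401. By width class the interval for MM-401 overlap excluded 0 only from over 200 to 300 bp, at −4.34 points (−8.00 to −0.866). From over 100 to 200 bp the MM-401 difference was 0.798 points (−3.40 to 4.77). Peaks absent from both MM-401 and 4OHT had MLL1 within 2 kb under MM-401 at 44.1%, and the regions differed from them by −12.2 points (−16.1 to −8.24). Peaks absent only from MM-401, which 4OHT WDR5 overlaps, were also higher, at 43.0% under MM-401 and 21.1% in DMSO. The regions differed from these by −11.0 points (−15.2 to −6.85) and −7.85 points (−11.1 to −4.59). EtOH-absent peaks were close to the regions, at 14.9% in DMSO and 33.3% under MM-401. For the MM-401 list that difference was −1.31 points (−5.79 to 3.09).

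**Figure D5:**
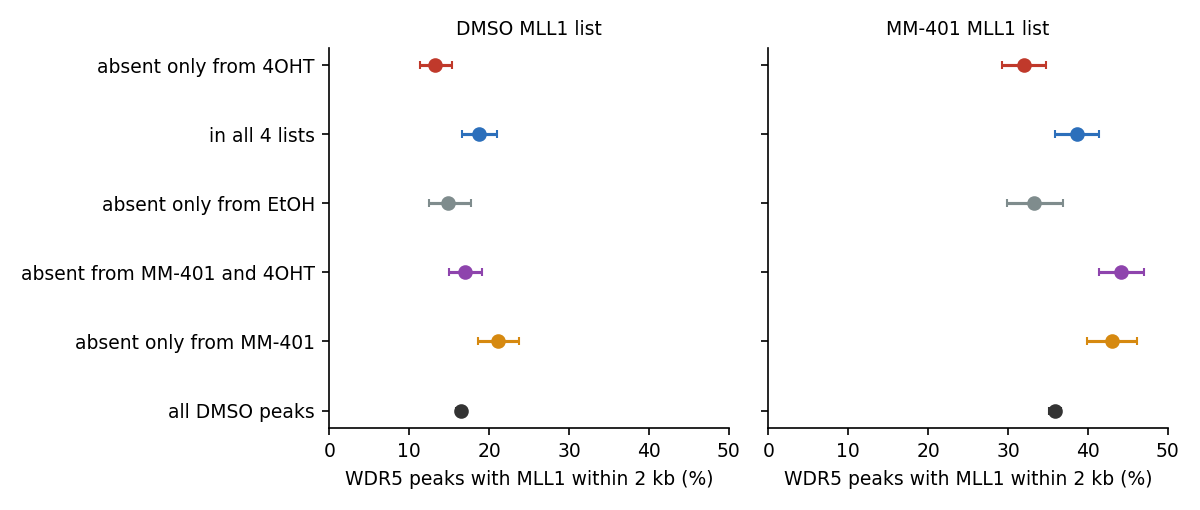
Share of WDR5 peaks with an MLL1 peak within 2 kb (horizontal axis, %, with 95% Wilson interval) for 6 sets of WDR5 peaks, in the DMSO and MM-401 MLL1 lists. Peaks absent only from 4OHT lie lowest in both panels, at 13.2% and 32.0%, and their intervals overlap those of peaks absent only from EtOH.

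Among the regions, mark and MLL1 varied with the distance to the nearest 4OHT WDR5 peak. The rule used this WDR5 list, and no other set of WDR5 peaks was sorted by this distance. Whether the pattern is particular to the regions was therefore not tested. Of the 335 regions within 500 bp of one, 98.5% had H3K4me2 in EtOH and 93.7% under 4OHT, and MLL1 lay within 2 kb at 17.6% in DMSO and 46.0% under MM-401. Among regions more than 500 bp and up to 5 kb away, 95.7% and 94.0% had H3K4me2, and MLL1 lay within 2 kb at 15.9% and 30.9%. Among the 409 regions more than 5 and up to 50 kb away, the H3K4me2 shares were 91.4% and 88.0%, and the MLL1 shares 8.80% and 21.5%. The 81 regions farther away had H3K4me2 at 81.5% in EtOH and 75.3% under 4OHT, and 9.88% of them had it in no list. MLL1 lay within 2 kb at 7.41% of these in DMSO and at 30.9% (21.9 to 41.6%) under MM-401, so the MM-401 MLL1 share did not go on falling with distance. In the same order, the median EtOH H3K4me2 peak, taken as 0 where there was none, narrowed from 3675 to 3225, 1975 and 1300 bp. The median EtOH WDR5 peak measured 225, 200, 200 and 175 bp.

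Single regions show the range. All positions are in build mm9. The region farthest from any 4OHT WDR5 peak, chr9:7184551-7184775, lay 382800 bp away and kept its H3K4me2, with peaks of 4300 bp in EtOH and 4275 bp under 4OHT, beside 2350 bp for DMSO and 4150 bp for MM-401. At chr9:26250676-26250900, 362225 bp away, and at chr15:56868776-56869025, 216025 bp away, no list had H3K4me2 over the region itself. Within 1 kb of the centre, H3K4me2 under MM-401 covered 400 bases at the former and 1000 at the latter. In EtOH it covered 375 bases at the latter. The region chr7:64593551-64593850 had short H3K4me2 peaks of 250, 275 and 375 bp in DMSO, MM-401 and EtOH and none under 4OHT. At chr8:61437126-61437475 an MM-401 MLL1 peak lay over the region, and H3K4me2 measured 1300 bp in EtOH and 800 bp under 4OHT, beside 650 bp for DMSO and 775 bp for MM-401.

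Both MLL1 lists overlapped chr2:35293326-35293700, a region of 375 bp with its nearest 4OHT WDR5 peak 7175 bp away. Its H3K4me2 peak was widest under 4OHT, at 12400 bp, against 3950 bp in EtOH, 2525 bp for DMSO and 2825 bp for MM-401. WDR5 there measured 550 bp under MM-401 and 225 bp in EtOH.

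Of the 27 regions with H3K4me2 in DMSO, MM-401 and EtOH but not 4OHT, the 5 with the widest EtOH H3K4me2 peak are named. They were chr6:86475776-86475850 (6475 bp in EtOH), chr15:27560226-27560350 (3375 bp), chr17:13202876-13203050 (3000 bp), chr16:20359826-20360000 (2850 bp) and chr3:67361126-67361225 (2125 bp). None of these 5, which were chosen for wide EtOH peaks, had lost the mark from its surroundings. Within 1 kb of the centre, 4OHT H3K4me2 still covered 1376 bases at the chr6 region, where EtOH had 2001. At the others it covered 1776, 888, 1826 and 1500 bases, where EtOH had 2001, 1438, 2001 and 1725. By contrast, chr7:64593551-64593850, which had the same pattern and a short EtOH peak, had 700 bases in EtOH and 0 under 4OHT. A 4OHT WDR5 peak lay 350 bp from the chr6 region, 25 bp from the chr16 region and 150 bp from the chr3 region.

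The widest regions with no H3K4me2 in any list were chr1:100610251-100610750, chr13:67444151-67444625 and chr1:100617576-100617950. The chr1 regions lay 225 and 150 bp from a 4OHT WDR5 peak. At the second of them no H3K4me2 was called within 1 kb in any condition.

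The EtOH H3K4me2 domain with most regions was chr9:32306026-32352675, of 46650 bp, which held 3 of them and no retained peak. WDR5 peaks in it numbered 8 in EtOH and 7 under 4OHT, beside 5 in DMSO and 7 under MM-401, so WDR5 was still called there at other positions. H3K4me2 covered 44425 bp of it in DMSO and 45700 bp under 4OHT. The chr1 domains named next are among the 27 that held 2 regions and do not rank above the rest of these. In the domain chr1:54889826-54900425, of 10600 bp, WDR5 had 2 peaks in EtOH and 0 under 4OHT, beside 3 in DMSO and 3 under MM-401. H3K4me2 nevertheless covered 10475 bp of it under 4OHT. MLL1 had 4 peaks there under MM-401 and 0 in DMSO. The domain chr1:31003501-31006300, of 2800 bp, also had 0 WDR5 peaks under 4OHT, with H3K4me2 over 2375 bp of it.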

How the data were processed

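ChIP-seq peak lists for 10 of 14 samples were used, and the 4 inputs were not analysed. The authors deposited each list as positions only (chromosome, start, end), called on single libraries. Per the labels, reads were aligned to mm9 with Bowtie. Peaks in 9 lists carry HPeak names on a 25 bp grid with 1-based starts and inclusive ends. The DMSO MLL1 list has neither names nor grid, the methods name MACS for it, and its starts were read as 0-based. No threshold of HPeak is given in these sources.

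Overlap meant at least 1 shared bp. Python 3.11.15 and numpy 2.4.6 were used, with matplotlib 3.10.9 for figures. Overlap calls, tested on simulated lists, matched bedtools 2.31.1. Shares carry 95% Wilson intervals and differences 95% Newcombe intervals. With 1 library per condition and antibody, no test between conditions was possible. The width limit, the comparison sets, the width and distance classes and the rules for named regions were chosen with earlier results of these data known. Regions named by position are the 5 farthest from 4OHT WDR5, those with MLL1 in both lists, the 5 with H3K4me2 absent from 4OHT alone and the widest EtOH domain, the 3 widest without H3K4me2, and the 3 domains with most regions, chromosome 18 left out. Of these domains, those on chr1 were tied with others that also held 2 regions. Alternatives changed the overlap, the width limit, list lengths, the distance allowed and the reading of MLL1 starts. Gene names and sequences are not given, because no mm9 reference was used here.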

Additional observations from a re-analysis of the deposited data

Results flagged for a closer look

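At the 4OHT-absent WDR5 peaks, the calling of H3K4me2 moved in opposite directions in the 2 treatments, which were made in different cell lines. The share with H3K4me2 was 4.26 percentage points higher under MM-401 than in DMSO and 3.55 points lower under 4OHT than in EtOH (4OHT minus EtOH: −3.55). The median H3K4me2 length within 1 kb of the centre was 125 bp greater under MM-401 and changed by −113 bp under 4OHT, as differences of medians. The median of the region-by-region differences was smaller, at 37.5 bp under MM-401 and 0 bp under 4OHT. The median width of the overlying H3K4me2 peak was 300 bp greater under MM-401 and changed by −350 bp under 4OHT. The opposite signs were not particular to these regions: at WDR5 peaks present in all 4 lists the shares changed by 6.14 points under MM-401 and by −3.44 points under 4OHT. With 1 library each, the difference between the treatments was not tested, and treatment and cell line cannot be told apart.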

How the results depend on the processing

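Of 94 recomputed values under 9 alternatives, 62 stayed within their counting interval (counts within 1.5 times), 32 moved and none changed direction. Without regions that had a 4OHT WDR5 peak within 2 kb, 620 regions remained, their H3K4me2 shares were 91.3% (EtOH), 87.7% (4OHT) and 92.1% (MM-401), their median distance was 11937.5 bp by construction, and the differences from retained peaks were −5.14 points under 4OHT and −5.03 in EtOH. This setting drops regions by distance and leaves retained peaks unchanged. The dropped regions had H3K4me2 more often than the rest in both lists, and why they did was not tested. Asking that 50% of the DMSO peak be covered in MM-401 and EtOH left 590 regions and 330 EtOH-absent peaks. Cutting the 4OHT WDR5 list to the length of the EtOH list moved the median distance to 4750 bp. The widest 50% of each WDR5 list left 651 regions and 337 EtOH-absent peaks, with H3K4me2 at 92.3% in DMSO, 96.3% under MM-401 and 92.6% under 4OHT, 3.23% in EtOH but not 4OHT, and a median distance of 8575 bp. When 50% of a region had to be covered by the mark, H3K4me2 shares were 82.2% (DMSO), 88.8% (MM-401), 89.9% (EtOH) and 84.2% (4OHT), 7.28% had it in EtOH but not 4OHT, and MLL1 shares were 1.07% in DMSO and 1.78% under MM-401. When marks up to 2 kb away counted, the same values were 97.4%, 98.0%, 96.9% and 96.1%, 1.60%, 13.2% and 32.0%, and the DMSO MLL1 difference from retained peaks was −5.51 points.

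The interval of the 4OHT H3K4me2 difference included 0 with 50% coverage in MM-401 and EtOH (−3.05), with the widest 50% (−1.68) and with 50% of the region covered by the mark (−2.06). That of the EtOH difference included 0 when marks up to 2 kb away counted (−1.23). The DMSO MLL1 difference excluded 0 with no width limit (−2.28, −3.77 to −0.756). No paired analysis was possible because each condition and antibody had 1 library, and for the same reason no replicate could be left out. Unknown depth limits every absence to "not called".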

Other observations

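The regions lay on all 19 autosomes and made up between 5.95% of the DMSO WDR5 peaks on chromosome 10 and 10.1% on chromosome 6. Other WDR5 peaks within 5 kb of a region were found at 47.6% of them in EtOH and 56.4% under 4OHT, and at 34.0% in DMSO and 38.6% under MM-401. All DMSO WDR5 peaks had such a neighbour more often, at 54.5% in EtOH and 58.4% under 4OHT, and at 39.6% in DMSO and 42.9% under MM-401. The WDR5 lists chose the regions, so these shares are a description, and over all DMSO peaks they followed the order of list length.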
